A study of Mus musculus with 6 samples.

Results

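ATP-sensitive potassium (KATP) channel subunits and inward rectifier potassium channel subunits were followed in mouse heart RNA by 6 genes chosen by name: Kcnj11, Kcnj8, Abcc8, Abcc9, Kcnj5 and Kcnj12. All 6 were found once each among 54532 genes. All 6 passed the filter of a mean of at least 1 FPKM, which left 12144 genes for testing. FPKM are fragments scaled to gene length and to a factor per library. Messenger RNA had been sequenced from hearts of 3 mice labelled Ythdc1flox/flox (flox control) and 3 mice labelled Ythdc1-CKO (CKO), where Ythdc1 encodes a nuclear protein that binds N6-methyladenosine in RNA. All animals had received normal chow for 15 days and are described as independent replicates. Age, sex, the cells in which Ythdc1 was deleted and the promoter driving the deletion are not in the labels, and the series text writes HKO for the knockout. The comparison of CKO with flox control asks which of these subunit transcripts differ in a heart with Ythdc1 deleted.

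Inward rectifier (Kir) channels pass potassium more easily into the cell than out of it and hold the resting potential of heart muscle. KATP channels join pore subunits of the Kir6 type with sulfonylurea receptor subunits, close when ATP is plentiful and open when ADP rises, so they tie the membrane potential to the energy state. Kcnj11 encodes the pore Kir6.2 and Kcnj8 the pore Kir6.1, while Abcc8 encodes the receptor SUR1 and Abcc9 the receptor SUR2, whose splice forms SUR2A and SUR2B are not separated by a value per gene. Kcnj5 encodes Kir3.4, which pairs with the Kcnj3 product Kir3.1 in the G protein-gated (GIRK) channel that slows the heartbeat under vagal tone. Kcnj12 encodes Kir2.2, which contributes with the Kcnj2 product Kir2.1 to the background inward rectifier current IK1.

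Each library held 17434296 to 19360428 reads assigned to genes, as recovered from its FPKM, and the members drew 359 to 6000 reads per library. Ythdc1 measured 4.02 ± 0.344 FPKM in the flox controls and 2.44 ± 0.119 FPKM in CKO hearts (mean ± SD, n = 3 each, limma adjusted p = 0.015). That call was lost without flox control 1 (0.0707), flox control 3 (0.0637) or CKO 3 (0.0535), and after rescaling to TPM (0.0944). Cardiomyocyte markers were abundant in every library (Myh6 at 2481 to 4092 FPKM, Myl2 at 2228 to 2957 FPKM). CKO 3 held 4037 reads of Xist against 0 to 5 in the others, and little of the Y-linked Ddx3y (0.350 FPKM against 10.8 to 15.9 FPKM), a female pattern seen in no other library. Whether sex plays a part in any value of that library was not tested.

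Abcc9 and Kcnj11, whose products include the subunits of the ventricular type of KATP channel, were called lower in CKO hearts. The other 4 members did not pass the test. Neither call held without flox control 1, flox control 3 or CKO 3, and the Abcc9 value does not separate the SUR2 splice forms. Members were called lower in 2 of 6 cases, where 5.49% of all genes tested were called lower, and in 0 cases higher, where 5.69% were. All genes called in either direction made up 11.2% of those tested. Log2 fold changes are CKO minus flox control on the log2(FPKM + 1) scale. They were negative in 5 of 6 members and in 48.9% of all genes tested, with a median of -0.35 over the members and 0.01 over all genes. Calls use limma with a Benjamini-Hochberg adjusted p under 0.05 over all 12144 genes. In whole-heart RNA, fewer cells of a type and less RNA per cell cannot be told apart.

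**Figure D1:**
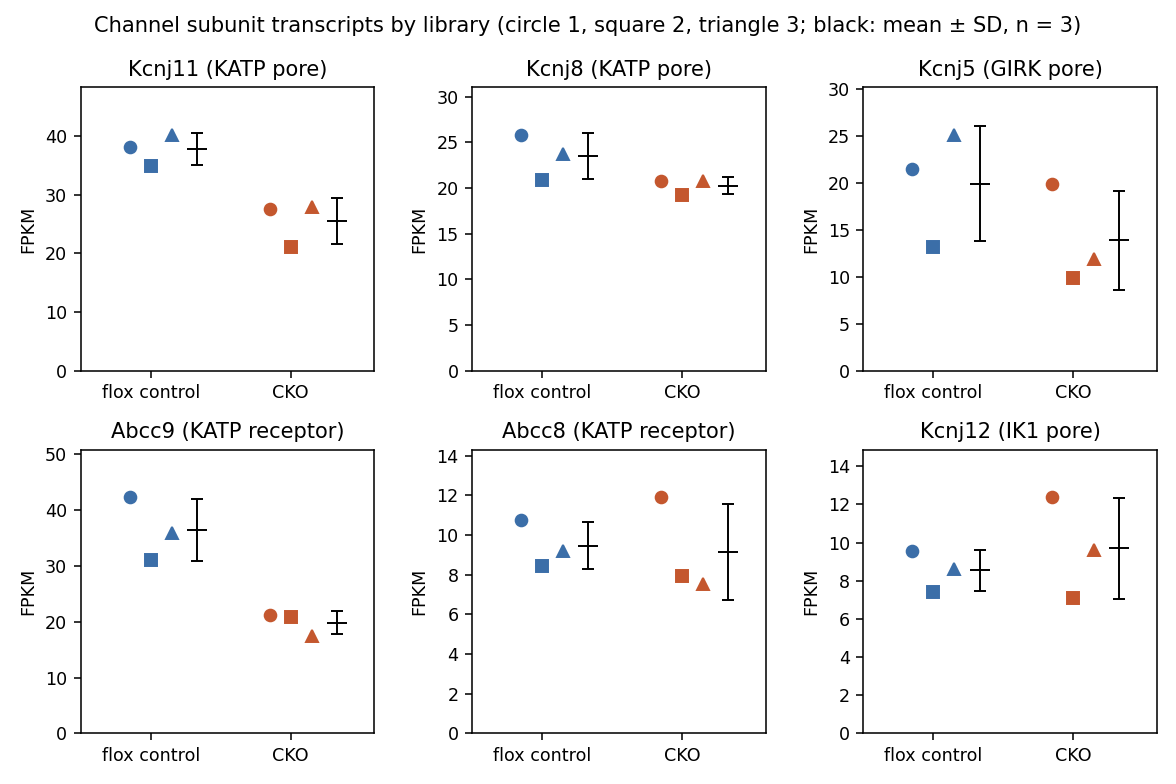
FPKM of the 6 members (vertical axes, linear from 0) in each of 3 flox control (blue) and 3 CKO (orange) libraries, with circles, squares and triangles for libraries 1, 2 and 3 and black bars for the mean ± SD. CKO points lie below all flox control points for Kcnj11, Abcc9 and, by a small margin, Kcnj8, and the groups overlap for Kcnj5, Abcc8 and Kcnj12.

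Kcnj11 (ENSMUSG00000096146, GRCm38 chromosome 7, 46093953 to 46100764, minus strand), the Kir6.2 pore of the sarcolemmal channel in ventricular muscle, measured 38.2, 34.8 and 40.2 FPKM in the flox controls (libraries 1, 2 and 3, the order used throughout) and 27.5, 21.0 and 27.9 FPKM in the CKO hearts. Every CKO library lay below every flox control. Group means were 37.7 ± 2.75 and 25.5 ± 3.88 FPKM (SD, n = 3 each), a ratio of 0.675. The log2 fold change was -0.56 (SE 0.13, 95% interval -0.88 to -0.24, limma adjusted p = 0.0454). The call stood close to the threshold. It was lost without flox control 1 (0.144), flox control 2 (0.0864), flox control 3 (0.142), CKO 2 (0.0784) or CKO 3 (0.0728), and of the 6 fits without a library it was kept only without CKO 1 (0.04997, where 1490 genes were called). It was also lost with no filter (0.0825) and after rescaling to TPM (0.0601), while the fold change stayed negative in each of these fits.

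Abcc9 (ENSMUSG00000030249, chromosome 6, 142587862 to 142702315, minus strand), the SUR2 receptor that couples the pore to nucleotides and to opener drugs, measured 42.4, 31.2 and 35.9 FPKM in the flox controls and 21.2, 20.9 and 17.5 FPKM in CKO hearts. The lowest flox control stood above the highest CKO library by more than the whole range of the CKO group. Group means were 36.5 ± 5.62 and 19.9 ± 2.09 FPKM (SD, n = 3 each), a ratio of 0.544. The log2 fold change was -0.84 (SE 0.14, 95% interval -1.17 to -0.51, limma adjusted p = 0.0162), and 2.68% of all genes tested had a fold change as low or lower, against 5.97% for Kcnj11. The Abcc9 call was lost without flox control 1 (0.0598), flox control 3 (0.0607) or CKO 3 (0.0516). Under the other 13 alternatives it held.

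Kcnj8 (ENSMUSG00000030247, chromosome 6, 142564837 to 142571614, minus strand), the Kir6.1 pore known from vascular smooth muscle and pericytes, measured 25.9, 20.8 and 23.8 FPKM in the flox controls and 20.8, 19.2 and 20.8 FPKM in CKO hearts. The CKO libraries were close to each other, and the highest of them (20.79 FPKM) stood just under the lowest flox control (20.83 FPKM). Group means were 23.5 ± 2.53 and 20.3 ± 0.897 FPKM (SD, n = 3 each). The log2 fold change of -0.20 did not pass (SE 0.10, 95% interval -0.45 to 0.05, limma adjusted p = 0.271). On the deposited FPKM scale, groups did not overlap, with CKO lower, for 3 of 6 members and for 17.4% of all genes tested. For Kcnj8 this rests on that small margin, and rescaling to TPM makes its groups overlap. In 0 of 6 members were the groups apart with CKO higher (16.9% of all genes), and in either direction 34.3% of all genes were apart.

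Abcc8 (ENSMUSG00000040136, chromosome 7, 46104523 to 46180033, minus strand), the SUR1 receptor of pancreatic beta cells that is also found in mouse atria, measured 10.7, 8.46 and 9.20 FPKM in the flox controls and 11.9, 7.92 and 7.54 FPKM in CKO hearts. CKO 1 was the highest of all 6 libraries and the other CKO libraries were the lowest, so the groups overlapped. Group means were 9.47 ± 1.17 and 9.13 ± 2.42 FPKM (SD, n = 3 each), and the log2 fold change was -0.07 (SE 0.18, 95% interval -0.49 to 0.35, limma adjusted p = 0.848). The sign turned without flox control 1 (0.018), CKO 2 (0.011) or CKO 3 (0.042), so no direction can be given for Abcc8.

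**Figure D2:**
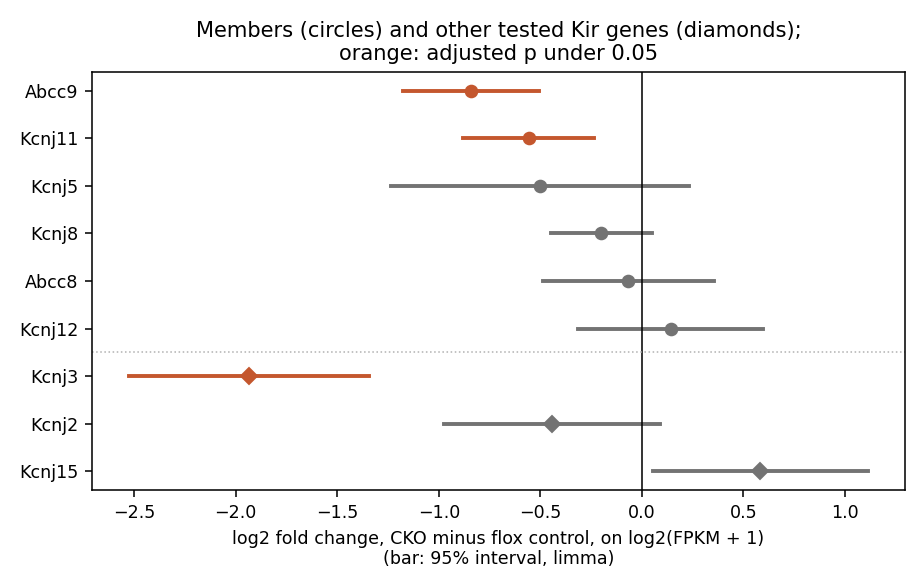
Log2 fold changes (horizontal axis, CKO minus flox control on log2(FPKM + 1)) with 95% limma intervals for the 6 members (circles) and the other 3 inward rectifier genes tested (diamonds), orange where the adjusted p is under 0.05. Abcc9 (-0.84), Kcnj11 (-0.56) and Kcnj3 (-1.94) were called, and the intervals of Kcnj5, Kcnj8, Abcc8, Kcnj12 and Kcnj2 include 0.

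The 4 KATP genes form neighbouring pairs in the genome, each with the pore gene just downstream of a receptor gene on the same strand. Kcnj11 and Abcc8 are separated by 3758 bases on chromosome 7, and Kcnj8 and Abcc9 by 16247 bases on chromosome 6. In the first pair the pore was called lower, and in the second the receptor was, so each neighbouring pair held a called and an uncalled gene. The ratio of Abcc9 to Kcnj8 FPKM was 1.55 ± 0.0774 in the flox controls and 0.983 ± 0.128 in CKO hearts (SD, n = 3 each), with no overlap between the groups (exact permutation p = 0.1, adjusted p = 0.16 over 8 such sums and ratios). The ratio of Kcnj11 to Abcc8 was 4.01 ± 0.421 and 2.88 ± 0.725 (SD, n = 3 each), and CKO 3 at 3.70 lay within the flox control range (exact permutation p = 0.2, adjusted p = 0.267). A value of 0.1 is the smallest that 3 against 3 libraries can give in an exact 2-sided permutation test, so these tests cannot reach 0.05. Other coding genes beside the pairs did not pass. Nomo1 next to Kcnj11 had a log2 fold change of 0.20 (limma adjusted p = 0.213), Ldhb next to Kcnj8 -0.51 (0.147), Cmas next to Abcc9 -0.14 (0.34) and Ush1c next to Abcc8 -0.08 (0.637). Beside the other members, Arhgap32 next to Kcnj5 had 0.13 (0.529) and Map2k3 next to Kcnj12 -0.08 (0.701), while Kcnj1 and Tnfrsf13b were below the filter.

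Reads of genes that overlap the members were few. Annotated transcripts of uncertain or antisense type overlap Abcc8 (Gm45487 with 2 to 19 reads per library and Gm45486 with 0 to 3) and Abcc9 (5330439B14Rik with 0 to 2 reads). The other 4 members overlap no gene in the deposited coordinates.

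The promoter windows of the chromosome 6 pair are shown because that pair held the largest fall among the members and a neighbour that did not pass. The windows run from 250 bases before to 50 bases after the annotated start, in RefSeq annotation of GRCm38.p6, both on the minus strand, Abcc9 at chr6:142702225-142702524 and Kcnj8 at chr6:142571565-142571864. Capitals mark matches to the 6 short motifs searched on both strands.
Abcc9: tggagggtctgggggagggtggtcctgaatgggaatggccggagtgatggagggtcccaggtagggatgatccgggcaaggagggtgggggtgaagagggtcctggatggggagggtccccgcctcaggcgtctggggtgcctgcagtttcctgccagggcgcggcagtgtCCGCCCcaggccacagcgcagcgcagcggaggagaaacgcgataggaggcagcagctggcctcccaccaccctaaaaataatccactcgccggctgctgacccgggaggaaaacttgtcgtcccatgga
Kcnj8: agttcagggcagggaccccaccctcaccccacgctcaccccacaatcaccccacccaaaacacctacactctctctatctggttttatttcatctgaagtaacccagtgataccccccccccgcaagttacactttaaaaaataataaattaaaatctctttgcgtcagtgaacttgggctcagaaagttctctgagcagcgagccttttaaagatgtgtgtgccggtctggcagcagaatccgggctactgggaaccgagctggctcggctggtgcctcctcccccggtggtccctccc
Among the 32851 windows searched, the TATA box TATAAA was found in 13.6%, the GC box GGGCGG in 35.7%, the GATA element AGATAA in 11.2%, the forkhead element GTAAACA in 3.65%, the E-box CACGTG in 7.15% and the nuclear receptor element AAGGTCA in 4.72%. The Abcc9 window held the GC box on the opposite strand at position -79 from the start. The Kcnj8 window held none of the 6 motifs, which says only that these letters are not in this window. G and C made up 65.7% of the Abcc9 window and 53.3% of the Kcnj8 window, more than in 83% and 51.4% of all windows. The dinucleotide CG occurred 16 times in the Abcc9 window and 9 times in the Kcnj8 window. Promoter windows of Kcnj11 and Abcc8 are not shown.

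The makeup of the KATP transcripts was compared within each library, where scaling between libraries has no effect. Kcnj8 made up 40.4%, 37.5% and 37.1% of the summed FPKM of the pore genes Kcnj8 and Kcnj11 in the flox controls and 43.0%, 47.8% and 42.7% in the CKO hearts. Abcc8 made up 20.2%, 21.3% and 20.4% of the summed FPKM of the receptor genes Abcc8 and Abcc9 in the flox controls, and 35.9%, 27.5% and 30.2% in CKO hearts. Neither share overlapped between the groups. The Kcnj8 share was higher by 6.19 percentage points and the Abcc8 share by 10.6 percentage points (exact permutation p = 0.1 each, adjusted p = 0.133 over 4 shares). The Abcc8 share was nearly constant among the controls and more spread in CKO hearts (20.7% ± 0.607 against 31.2% ± 4.31, SD, n = 3 each).

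The deposited gene length sets these shares in part. It covers all annotated exons of a gene and is 1.66 times the longest coding transcript for Abcc8, 1.17 times for Kcnj11, 1.12 times for Abcc9 and 1 times for Kcnj8. With reads divided by the length of the longest coding transcript, a choice made after the data were seen, Abcc8 made up 27.9% ± 0.744 of receptor transcripts in the flox controls and 40.2% ± 4.80 in CKO hearts (SD, n = 3 each). Kcnj8 then made up 34.7% ± 1.72 and 40.7% ± 2.80 of pore transcripts. Sums over each kind of subunit, added after the values were seen, did not overlap either. Pore transcripts summed to 64.0, 55.6 and 64.0 FPKM in the flox controls and 48.2, 40.2 and 48.7 FPKM in CKO hearts, and receptor transcripts to 53.1, 39.6 and 45.1 FPKM and 33.1, 28.8 and 25.0 FPKM (exact permutation p = 0.1 each, adjusted p = 0.16). The ratio of the receptor sum to the pore sum was 0.749 ± 0.0696 and 0.639 ± 0.110 (SD, n = 3 each), and the groups overlapped (exact permutation p = 0.3).

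**Figure D3:**
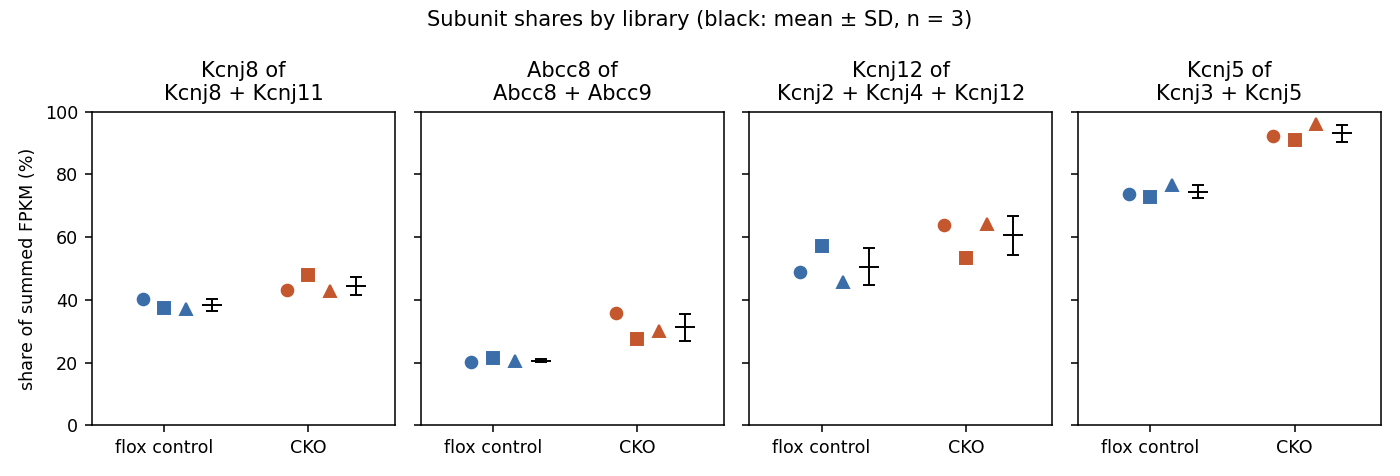
Share of 1 subunit gene in the summed FPKM of its channel type (vertical axis, percent, 0 to 100) in each library, with black bars for the mean ± SD of 3 libraries. The shares of Kcnj8, Abcc8 and Kcnj5 do not overlap between flox control and CKO, and those of Kcnj12 do.

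Kcnj8 and Abcc9 are also used as markers of pericytes and smooth muscle, so the markers of those cells are given beside them. Of 5 pericyte markers tested, 1 was called lower (Vtn) and 0 higher, and their summed level was 231 to 263 FPKM in the flox controls and 158 to 252 FPKM in CKO hearts. Vtn, the vitronectin gene, was at 19.1, 14.9 and 18.8 FPKM in the controls and 7.36, 3.54 and 3.07 FPKM in CKO hearts, with every CKO library below every control. Its log2 fold change was -1.78 (SE 0.27, limma adjusted p = 0.0128), and the call was lost without flox control 1 (0.0594) or flox control 3 (0.0513). The other pericyte markers did not pass. Rgs5 was at 195, 175 and 166 FPKM in the controls and 113, 179 and 181 FPKM in CKO hearts, so only CKO 1 was below all controls. Pdgfrb ranged over 25.0 to 27.8 and 21.6 to 36.0 FPKM, and Cspg4 over 5.12 to 5.52 and 5.65 to 9.17 FPKM, called higher only without CKO 1 (limma adjusted p = 0.0146).

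Of 4 smooth muscle markers tested, 1 was called lower (Smtn) and 0 higher, with summed levels of 263 to 609 FPKM in the controls and 171 to 418 FPKM in CKO hearts. Smtn, the smoothelin gene, was at 71.9, 67.5 and 79.9 FPKM in the controls and 48.5, 37.4 and 38.6 FPKM in CKO hearts, and the groups were apart. The ratio of its means was 0.568, against 0.544 for Abcc9, 0.775 for Myh11 and 0.758 for Acta2. Cnn1 went the other way, with means of 1.83 FPKM in the controls and 3.66 FPKM in CKO hearts. So did Tagln, which was below the filter (0.273 and 0.587 FPKM, 7 to 26 reads per library). Smtn had a log2 fold change of -0.81 (SE 0.13, limma adjusted p = 0.0159), and the call was lost without flox control 1 (0.0684), flox control 3 (0.0622) or CKO 3 (0.0537). Myh11 ranged over 5.90 to 9.07 and 4.53 to 6.51 FPKM and Cnn1 over 1.21 to 2.53 and 2.08 to 5.95 FPKM, and neither passed (limma adjusted p = 0.298 and 0.234). Of 6 cardiomyocyte markers 0 were called, with summed levels of 10056 to 11092 and 8038 to 11348 FPKM. Of 6 endothelial markers 1 was called lower (Tie1, log2 fold change -0.48, limma adjusted p = 0.0302, lost without any 1 library at 0.0542 to 0.119 and with TPM at 0.176), with sums of 263 FPKM in each flox control and 193 to 259 FPKM in CKO hearts. None of the pericyte or smooth muscle markers was at 0 in any library. The part of these cells in the Abcc9 and Kcnj8 values was not tested.

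Kcnj5 varied most between libraries of the same group. This gene (ENSMUSG00000032034, chromosome 9, 32314707 to 32344350, minus strand), the Kir3.4 subunit of the atrial acetylcholine-activated channel, measured 21.4, 13.1 and 25.1 FPKM in the flox controls and 19.8, 9.91 and 11.9 FPKM in CKO hearts. Flox control 2 lay near the low CKO libraries and CKO 1 near the high controls, so the groups overlapped. Group means were 19.9 ± 6.14 and 13.9 ± 5.26 FPKM (SD, n = 3 each), which made the coefficient of variation 30.9% and 37.9%, against 4.43% to 27.2% for the other members. The log2 fold change of -0.50 did not pass (SE 0.31, 95% interval -1.23 to 0.23, limma adjusted p = 0.343). The interval holds changes as large as that of Abcc9, so a fall of that size was not excluded.

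Kcnj3, the partner of Kcnj5 in the GIRK channel, had the largest fold change among the 9 inward rectifier and KATP receptor genes tested. Kcnj3 (ENSMUSG00000026824, chromosome 2, 55435970 to 55598145, plus strand) was at 7.62, 4.89 and 7.62 FPKM in the flox controls and 1.66, 0.995 and 0.476 FPKM in CKO hearts, from 45 to 792 reads per library. Every CKO library was far below the lowest control. Group means were 6.71 ± 1.58 and 1.04 ± 0.592 FPKM (SD, n = 3 each), 6.44-fold lower in CKO hearts. The log2 fold change was -1.94 (SE 0.25, 95% interval -2.53 to -1.34, limma adjusted p = 0.00835), and the call held without each library in turn (adjusted p 0.00526 to 0.0449). Kcnj5 made up 73.8%, 72.9% and 76.7% of the summed FPKM of Kcnj3 and Kcnj5 in the flox controls and 92.3%, 90.9% and 96.1% in CKO hearts (exact permutation p = 0.1, adjusted p = 0.133 over 4 shares).

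The promoter windows of this pair are shown because, of the subunits of a single channel type, Kcnj3 was called and Kcnj5 was not, Kcnj5 on the minus strand at chr9:32344295-32344594 and Kcnj3 on the plus strand at chr2:55435720-55436019, drawn and marked as above.
Kcnj5: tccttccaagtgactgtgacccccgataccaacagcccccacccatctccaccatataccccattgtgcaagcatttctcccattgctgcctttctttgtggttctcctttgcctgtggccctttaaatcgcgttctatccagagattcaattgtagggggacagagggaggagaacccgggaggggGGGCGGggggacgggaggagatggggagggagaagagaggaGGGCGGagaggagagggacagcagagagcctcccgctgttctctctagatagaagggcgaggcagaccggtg
Kcnj3: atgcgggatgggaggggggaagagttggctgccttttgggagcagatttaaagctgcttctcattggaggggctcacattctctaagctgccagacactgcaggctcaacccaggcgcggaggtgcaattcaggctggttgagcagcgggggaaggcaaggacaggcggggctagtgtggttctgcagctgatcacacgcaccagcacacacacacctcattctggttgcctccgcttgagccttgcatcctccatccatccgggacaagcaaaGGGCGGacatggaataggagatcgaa
The Kcnj5 window held the GC box GGGCGG at positions -63 and -22, and the Kcnj3 window held it at position 25 after the start. None of the other 5 motifs matched in either window, which says only that these letters are absent there.

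Other genes of the GIRK signalling path came from a list of 12, all of them tested, of which 2 were called lower, 0 higher and 10 did not pass. The median log2 fold change was 0.04, against 0.01 over all genes. Adora1, the A1 adenosine receptor that opens GIRK channels through inhibitory G proteins, measured 4.73, 4.88 and 3.87 FPKM in the flox controls and 1.76, 1.82 and 2.21 FPKM in CKO hearts. The groups were well apart (log2 fold change -0.90, SE 0.11, limma adjusted p = 0.00767). Rgs6, which speeds the closing of GIRK channels after vagal signals, measured 3.22, 2.56 and 3.44 FPKM and 1.21, 1.04 and 0.925 FPKM (log2 fold change -0.98, SE 0.12, limma adjusted p = 0.00762). Both calls held without each library in turn, with adjusted p up to 0.0439. Chrm2, the M2 muscarinic receptor of the same path, measured 18.7, 11.6 and 14.9 FPKM and 15.7, 9.14 and 11.8 FPKM, with overlapping groups (log2 fold change -0.29, limma adjusted p = 0.468).

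**Figure D4:**
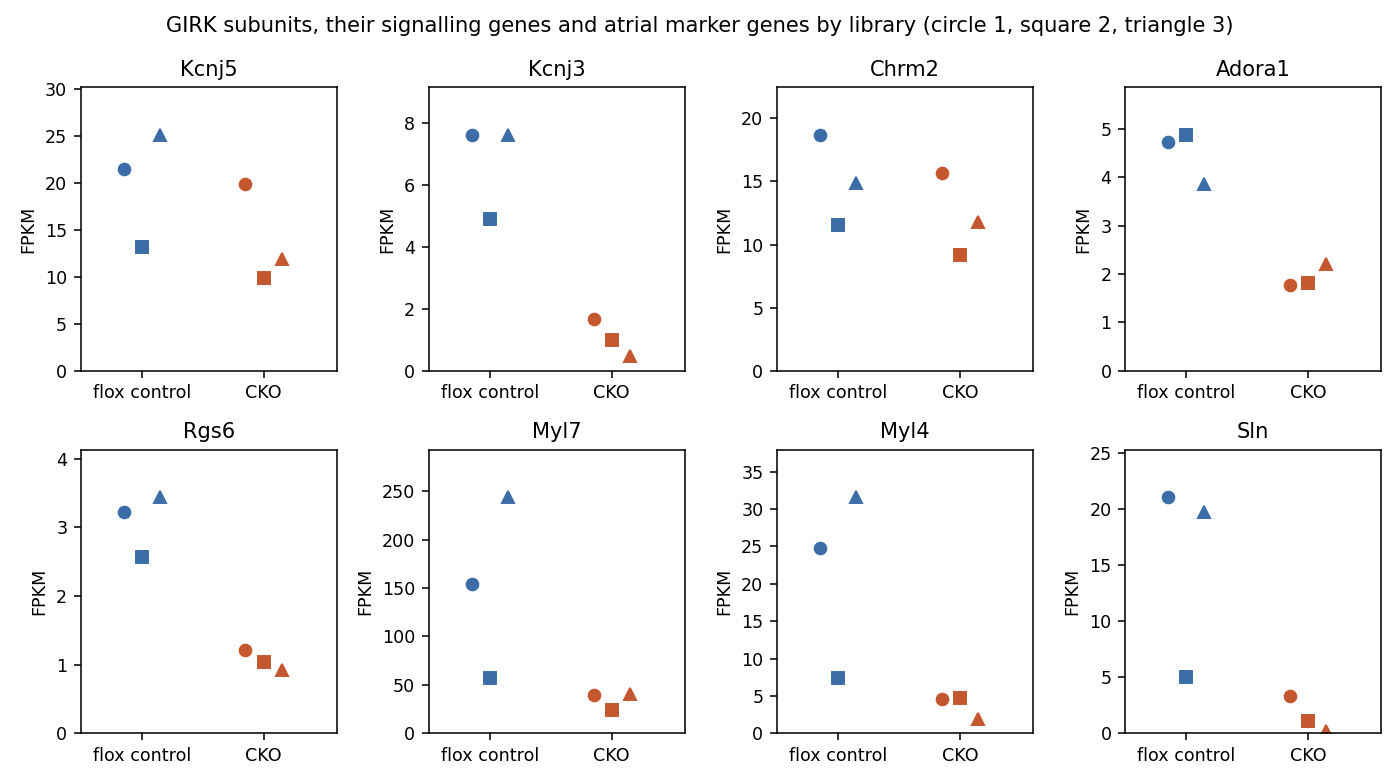
FPKM (vertical axes, linear from 0, scaled per panel) of Kcnj5, Kcnj3, the signalling genes Chrm2, Adora1 and Rgs6, and the atrial marker genes Myl7, Myl4 and Sln in 3 flox control (blue) and 3 CKO (orange) libraries. Flox control 2 has the lowest control value of Kcnj5, Kcnj3, Chrm2, Rgs6 and the 3 atrial markers, and all CKO values of Kcnj3, Adora1, Rgs6 and the atrial markers lie below the controls.

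Atrial markers are given beside the GIRK genes. Kcnj3 and Kcnj5 are atrial-enriched in the mouse. Myl7, the atrial regulatory light chain gene, measured 154, 56.6 and 244 FPKM in the flox controls and 39.2, 24.1 and 40.7 FPKM in CKO hearts. Myl4 measured 24.8, 7.40 and 31.6 FPKM and 4.54, 4.72 and 1.93 FPKM, and Sln 21.1, 5.05 and 19.8 FPKM and 3.34, 1.09 and 0.167 FPKM. Flox control 2 was low in all 3, and low in Kcnj3 and Kcnj5. Of the 5 atrial markers tested, 4 had negative fold changes, with only Sln called lower (limma adjusted p = 0.0436, lost under 8 of 16 alternatives, with 0.143 without flox control 1, 0.132 without flox control 3, 0.111 without CKO 2 and 0.111 without CKO 3), and Nppa, a gene also induced in stressed ventricle, was called higher. Myl7 (0.0631) and Myl4 (0.0534) missed the threshold. Without flox control 2 both were called lower (limma adjusted p = 0.0238 and 0.0231), and Myl4 also among genes averaging at least 5 FPKM (0.0424) and with voom (0.0481). Bmp10 was at 0 in flox control 2. With Nppa included the summed level of the list was 153 to 407 FPKM in the flox controls and 548 to 2100 FPKM in CKO hearts. Of 3 nodal and conduction markers tested 1 was called lower, Hcn4, at 1.23 to 2.80 FPKM in the flox controls and 0.081 to 0.378 FPKM in CKO hearts (limma adjusted p = 0.0212). That call was lost without flox control 1 (0.0835), flox control 3 (0.0557), CKO 2 (0.0504) or CKO 3 (0.0621), and with no filter (0.0517). Isl1 from the same list was at 0 in 5 libraries, and the list summed to 10.9 to 18.9 and 6.32 to 11.5 FPKM. The part of atrial or nodal tissue in the Kcnj3 and Kcnj5 values was not tested.

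Kcnj12 (ENSMUSG00000042529, chromosome 11, 61022564 to 61071131, plus strand), the Kir2.2 pore of the background current, was the only member with a positive fold change. It measured 9.55, 7.43 and 8.63 FPKM in the flox controls and 12.4, 7.10 and 9.61 FPKM in CKO hearts. CKO 1 was the highest and CKO 2 the lowest of all 6 libraries. Group means were 8.54 ± 1.06 and 9.70 ± 2.64 FPKM (SD, n = 3 each), and the log2 fold change of 0.14 did not pass (SE 0.19, 95% interval -0.31 to 0.60, limma adjusted p = 0.682). Without CKO 1 it was -0.035, so no direction can be given for Kcnj12.

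Kcnj2, the Kir2.1 pore that carries most of the ventricular IK1 current, measured 9.75, 5.49 and 10.2 FPKM in the flox controls and 6.72, 5.71 and 5.01 FPKM in CKO hearts. Flox control 2 lay among the CKO libraries and the other controls stood above them. The log2 fold change of -0.44 did not pass (SE 0.22, limma adjusted p = 0.25), and it passed without flox control 2 (-0.70, adjusted p = 0.0459). Kcnj4, the Kir2.3 gene, was near the limit of detection at 0.0529 to 0.22 FPKM and 0.259 to 0.478 FPKM, from 2 to 20 reads per library. Kcnj12 made up 48.9%, 57.3% and 45.6% of the summed FPKM of Kcnj2, Kcnj4 and Kcnj12 in the flox controls and 64.0%, 53.4% and 64.3% in CKO hearts, and the groups overlapped (exact permutation p = 0.2, adjusted p = 0.2 over 4 shares).

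The remaining inward rectifier genes were low in these hearts. Of the 11 listed genes besides the members, 3 passed the filter, and 1 of those was called lower (Kcnj3), 0 higher and 2 not. Kcnj15 measured 0.59, 0.478 and 0.731 FPKM in the flox controls and 0.759, 2.17 and 1.46 FPKM in CKO hearts (log2 fold change 0.58, SE 0.22, limma adjusted p = 0.145), and it passed without CKO 1 (0.0305). Kcnj6, a GIRK subunit gene of neurons, had 3, 1 and 0 reads in the flox controls and 20, 24 and 22 reads in CKO hearts, and it was tested only with no filter (log2 fold change 0.19, limma adjusted p = 0.0227). Kcnj14 measured 0.239 to 0.369 and 0.287 to 0.378 FPKM, and Kcnj10 0.0547 to 0.0928 and 0.0306 to 0.186 FPKM. Kcnj9 and Kcnj1 drew at most 4 reads and 1 read in any library. Kcnj13 and Kcnj16 drew 0 reads in all 6 libraries, which does not show their absence. Markers of neurons and Schwann cells summed to 10.2 to 18.9 FPKM in the flox controls and 22.4 to 42.5 FPKM in CKO hearts, with 1 of 3 tested called higher. Their part in the Kcnj6 reads was not tested.

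Of the listed relatives and partners of the KATP subunits, none was called. Of 9 other genes of the ABCC transporter subfamily, 4 passed the filter and 0 were called. Abcc5 was the most abundant of these at 7.81 ± 0.71 and 7.14 ± 1.16 FPKM (SD, n = 3 each), and Abcc1 measured 3.53 ± 0.30 and 3.14 ± 0.483 FPKM. Of 9 genes of proteins that anchor or sort Kir channels, 7 passed the filter and 0 were called. Cav3, the muscle caveolin gene, measured 70.3, 88.1 and 77.7 FPKM in the flox controls and 90.2, 146 and 162 FPKM in CKO hearts (log2 fold change 0.71, SE 0.23, limma adjusted p = 0.1), and it passed without CKO 1 (0.0135). Ank2, whose ankyrin-B product anchors Kir6.2, had a log2 fold change of -0.15 (limma adjusted p = 0.274).

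Of 6 genes of enzymes reported to sit near KATP channels and set the nucleotides they sense, 0 were called. Ak1, the cytosolic adenylate kinase gene, measured 189, 200 and 192 FPKM in the flox controls and 138, 104 and 148 FPKM in CKO hearts. The groups did not overlap, and the log2 fold change of -0.58 missed the threshold (SE 0.16, limma adjusted p = 0.06). Ckm, the muscle creatine kinase gene, measured 457, 506 and 385 FPKM and 191, 271 and 346 FPKM (log2 fold change -0.77, SE 0.24, limma adjusted p = 0.0901). The median log2 fold change was -0.32 over these 6 genes, 0.08 over the anchoring genes and -0.05 over the ABCC genes.

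Levels of the members were ordered per length on the FPKM scale. Kcnj11 and Abcc9 were the most abundant per length in the flox controls (37.7 and 36.5 FPKM) and did not differ from each other beyond their spread. Kcnj8 and Kcnj5 followed (23.5 and 19.9 FPKM), again within their spread, and Abcc8 and Kcnj12 were lowest (9.47 and 8.54 FPKM). In CKO hearts Abcc9 (19.9 FPKM) stood level with Kcnj8 (20.3 FPKM), below Kcnj11 (25.5 FPKM), followed by Kcnj5 (13.9 FPKM), Kcnj12 (9.70 FPKM) and Abcc8 (9.13 FPKM), whose spreads overlapped. The order of the lower members depends on the length used. Per longest coding transcript, a choice made after the data were seen, Abcc8 was at 15.7 ± 1.94 FPKM in the controls. In CKO hearts it was at 15.1 ± 4.01 FPKM (SD, n = 3 each). Its mean was above that of Kcnj12 in both groups and above that of Kcnj5 (13.9 ± 5.26 FPKM) in CKO hearts. The spreads overlapped in CKO hearts, and Kcnj5 was higher in CKO 1 (19.84 against 19.76 FPKM). Kcnj11 and Abcc9 were then at 44.1 and 40.7 FPKM in the controls and 29.8 and 22.2 FPKM in CKO hearts. There the mean of Abcc9 stood above that of Kcnj8 (20.3 FPKM), though Abcc9 was lower in CKO 3 (19.5 against 20.8 FPKM). Over the 6 libraries the mean level of Kcnj11 exceeded that of 89.6% of the genes tested and that of Kcnj12 65.2%.

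Genes with the profile most like each member were taken as the 3 with the smallest root mean square distance of log2(FPKM + 1), centred on the mean of the 6 libraries. They were Gpr27, Ttc33 and Me3 for Kcnj11 (distances 0.0266, 0.0515 and 0.0515), Agtr1a, Qser1 and Zdhhc18 for Kcnj8 (0.0151, 0.0201 and 0.0252), and Rasgrp2, Pde7b and Rhbdl3 for Abcc9 (0.0768, 0.105 and 0.114). For Abcc8 they were Cpt1b, Epor and Slc12a9 (0.044, 0.0602 and 0.0645), for Kcnj5 Aqp7, Carns1 and Tbx5 (0.154, 0.16 and 0.167), and for Kcnj12 Crebl2, Fth1 and Nat9 (0.0395, 0.067 and 0.0688). Among the members, Abcc8 and Kcnj12 were the most alike pair (0.17) and Abcc9 and Kcnj12 the least alike (0.541). These distances describe 6 libraries and carry no test.

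The letters GGACT, a common core of the methylation motif that Ythdc1 can bind once methylated, were counted on the sense strand of the longest coding transcript of each member. They occurred 3 times in Kcnj11, once in Kcnj8, 4 times in Abcc8, 5 times in Abcc9, 3 times in Kcnj5 and once in Kcnj12. Per kilobase this was 0.955, 0.392, 0.82, 0.667, 0.64 and 0.406, all below the median of 1.05 over 10858 tested genes with a coding transcript. Genes called lower had a median of 1.06 and genes called higher 1.12. Methylation was not measured here, and a match is not a methylated site.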

How the data were processed

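Poly-A RNA of 6 mouse hearts had been sequenced, grouped here by sample titles. The deposited values are FPKM per gene made by the authors, per the file headers. Per the submitters' processing notes, the tools were featureCounts 1.5.0-p3, DESeq2 1.20.0, CASAVA and HISAT2 2.0.5 and the build was GRCm38.p6, with no roles given. FPKM times deposited gene length gave whole multiples of a single step per library (tolerance 0.001), so reads could be recovered. The step also gave the factor per library, which differed from the assigned reads (18120259 against 19360428 for CKO 3). Strand use in counting is not given in the sources used here.

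Tested genes had to average 1 FPKM or more over the 6 libraries. The test ran on log2(FPKM + 1), which understates changes of low genes, with limma 3.58.1 in R 4.3.3 (variance trend, genotype only, 2-sided). Shares and ratios were tested with exact 2-sided permutation over 20 arrangements. The fit was tested on simulated data. Tables and figures used Python 3.11.15, numpy 2.4.6, pandas 2.3.3, scipy 1.17.1 and matplotlib 3.10.9. Member bounds were identical to those of GENCODE release M21, and promoter windows came from RefSeq.

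The members and all lists were chosen with earlier results of these data known. Named were the members, Ythdc1, all other inward rectifier genes, up to 4 called genes of each other pathway list (or the 2 with the smallest adjusted p), set markers, nearest profiles and neighbour genes. Ank2, Vtn, Smtn, Cnn1, Acta2, Tagln, Tie1, Nppa, Bmp10, Isl1, Myh6, Myl2, Chrm2, Xist and the overlapping genes were named after their values were seen. Some items that the rule covers are not reported here. Of 6 fibroblast markers 1 was called higher (sums 428 to 542 FPKM in flox controls and 455 to 653 FPKM in CKO), and of 4 macrophage markers 0 (52.8 to 95.8 and 42.6 to 206 FPKM). P-values measure the spread between these 6 animals. Alternatives were other pseudocounts (0.1 and 0.01), no filter or a mean of 5 FPKM, and scaling by TPM or TMM. Further ones were limma without a trend or with a robust one, limma voom applied to the reads, a replicate block, and leaving out each library. Relative to the assigned reads, TMM moved each library in the same direction as the deposited factor, so it was no independent check.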

Additional observations from a re-analysis of the deposited data

How the results depend on the processing

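In all, 16 alternatives were run for each member. Kcnj8 and Kcnj5 kept their direction and their side of the threshold in all of them. The Kcnj11 call was lost with no filter (log2 fold change -0.56, limma adjusted p = 0.0825), after TPM scaling (-0.52, 0.0601) and with the replicate block (-0.56, 0.0613). With each library left out in turn, log2 fold changes ran from -0.63 to -0.43 for Kcnj11, -0.95 to -0.73 for Abcc9, -0.26 to 0.042 for Abcc8 (positive without flox control 1, 0.018, CKO 2, 0.011, or CKO 3, 0.042), -0.035 to 0.33 for Kcnj12 (negative without CKO 1), -0.32 to 0.014 for Rgs5 (positive without CKO 1) and -0.063 to 0.29 for Pdgfrb (negative without CKO 2). Called members numbered 1 with no filter, with TPM and with the replicate block, and 0 to 2 with a library left out (0 without flox control 1, flox control 3 or CKO 3). All called genes numbered 1358, and 798 with no filter, 715 with the replicate block, and 315 to 1490 with a library left out. Other inward rectifier genes called numbered 2 with no filter (Kcnj3 and Kcnj6) and 0 with at least 5 FPKM, where Kcnj3 is not tested. With a library left out they numbered 1 to 2. GIRK signalling genes called numbered 0 with at least 5 FPKM, where Adora1 and Rgs6 are not tested. Channel anchoring genes called numbered 0 to 1 with a library left out (Cav3, without CKO 1). Enzyme genes called numbered 1 with TPM and 1 with no variance trend (Ak1 each time), and 0 to 1 with a library left out. The cause of the other changes was not tested. The 4 shares moved by less than the spread between libraries in all 8 alternatives each.

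The replicate numbers were not used to pair the samples, because the animals are described as independent replicates. Deviations of same-numbered libraries correlated at 0.139, 0.0597 and -0.0055, and only the libraries numbered 1 each correlated best with their own number. Such weak correlations over all genes cannot decide whether the samples were paired. With the replicate block, the calls of Ythdc1 (limma adjusted p = 0.0542), Hcn4 (0.0604) and Tie1 (0.0987) were lost, and Myl7 was called lower (0.0337). Depth limits Kcnj1, Kcnj4, Kcnj6, Kcnj9, Kcnj10 and Kcnj14, with 24 or fewer reads in any library.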
